A study of Mus musculus with 2 samples.

Results

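The amino acid and neurotransmitter transporters examined here are the genes of solute carrier families Slc1, Slc6, Slc7, Slc36, Slc38 and Slc43. All rows of the deposited table whose symbol begins with Slc, a family number 1, 6, 7, 36, 38 or 43, the letter a and a digit were taken, which gave 47 of 15953 genes. Among them Slc7a6os carries the name of a gene on the strand opposite to Slc7a6 and is not a transporter. The rule reads symbols and no measured value, although the families were picked with earlier results of these data known.

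The data were gene-level read counts of total RNA from mouse neural stem cells in suspension culture, with 1 library labelled wild type and 1 labelled Hikeshi cKO (conditional knockout). Hikeshi imports chaperones of the HSP70 family into the nucleus, and its loss in proliferating and differentiating neural stem cells is the subject of the series, per its title. The sources used here do not give the driver of the deletion, the age of the mice or the number of animals. Each group has 1 library and no replicate, so the genotypes could not be tested against each other and every value below compares these libraries. Where values are set against each other without labels, the library labelled cKO comes first.

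Solute carriers of these families move amino acids, and transmitters derived from them, across membranes. In brain tissue, glutamate transporters of Slc1 and the GABA and glycine transporters of Slc6 use the sodium gradient to clear transmitter from around cells, and astrocytes and radial glia are rich in several of them. Members of Slc7, Slc38 and Slc43 and the neutral exchangers of Slc1 mainly supply cells with amino acids for growth, while members of Slc36 and Slc38a9 act at the lysosome, where amino acids are sensed.

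Libraries were of nearly equal depth, at 18912683 reads (cKO) and 18839079 reads (wild type). Hikeshi itself had 640 reads (cKO) against 718 (wild type), a ratio of 0.888 (95% counting interval 0.797 to 0.989), so its level does not settle the genotype, which rests on the labels. The sum of 4 genes of the Y chromosome (Eif2s3y, Ddx3y, Kdm5d and Uty) was 2931 reads against 1, so the libraries also differ in Y-linked expression. With 1 library per group, differences that go with Y-linked expression cannot be told apart from those that go with the labelled genotype. Of all 12618 kept genes, 10.2% were at least 1.5-fold lower and 4.22% at least 1.5-fold higher in the library labelled cKO. Of 10 stem cell markers, all 10 were kept, 4 (Hes5, Prom1, Sox9 and Fabp7) were at least 1.5-fold lower and 1 (Vim) higher in that library, with a median log2 difference of -0.29. Their sum was 7309 CPM (reads per 1000000 reads counted) (cKO) and 6039 CPM (wild type), and without Vim, left out after its value was seen, it was 2731 against 3323.

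Most astrocyte markers and most kept oligodendrocyte lineage markers were lower in the same library as many of the transporters. Of 12 astrocyte markers, 11 were lower in the cKO-labelled library by at least 1.5-fold and 0 higher, beside 10.2% and 4.22% of all kept genes. The markers summed to 1725 CPM against 3616, and none was at 0 in either library. Of the 11, Gjb6 (1 read against 38) reached 1 CPM only in the library labelled wild type. Of 15 oligodendrocyte lineage markers, 13 were kept and 10 of these were at least 1.5-fold lower. The 15 summed to 2521 CPM against 3953, and Mobp was at 0 reads in the library labelled cKO. In both libraries the larger part of that sum came from the 3 kept genes within 1.5-fold. These were Olig1 (1401 against 1468 CPM), Olig2 (787 against 848) and Cspg4 (199 against 236). Of the 10, Enpp6 (2 reads against 364) and Mag (1 against 225) reached 1 CPM only in the library labelled wild type. Neuronal markers were split, with 2 of 9 kept genes higher and 2 lower (sums of 617 and 733 CPM). Of 8 listed microglia markers 5 had a row in the deposited data. These 5 were all below the filter, with 6 reads in all against 7, and Cx3cr1 and Csf1r were at 0 in the library labelled cKO. In bulk libraries, fewer cells of a type and less RNA per cell cannot be told apart. The part of these markers in the transporter differences was not tested.

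The 47 genes together took 0.413% of the reads from cKO-labelled cells and 0.565% of those from wild-type-labelled cells, 4133 against 5649 CPM (1.37-fold lower, 1.35 to 1.38). Genes with 1 CPM or more in either library were kept, which left 35 of the 47. A difference is the log2 ratio of cKO to wild type with 1 CPM added to each value, and a fold is the ratio of CPM without it. Of the 35 kept genes, 14 were at least 1.5-fold lower on that log2 scale in the library labelled cKO, where 10.2% of all 12618 kept genes were. Only Slc6a6 and Slc6a17 were at least 1.5-fold higher, where the share of all kept genes was 4.22%. At least 2-fold lower were 7 (3.85% of all kept genes), and Slc6a17 alone was at least 2-fold higher (1.25%). Their median difference was -0.39 beside -0.02 for all kept genes, and it lay at -0.21 over the 33 genes that reached 1 CPM in both libraries, of which 12 were lower. Under that filter 8.44% of all genes were lower and their median was -0.01. The remaining pair, Slc7a10 and Slc7a14, passed only through the library labelled wild type.

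**Figure D1:**
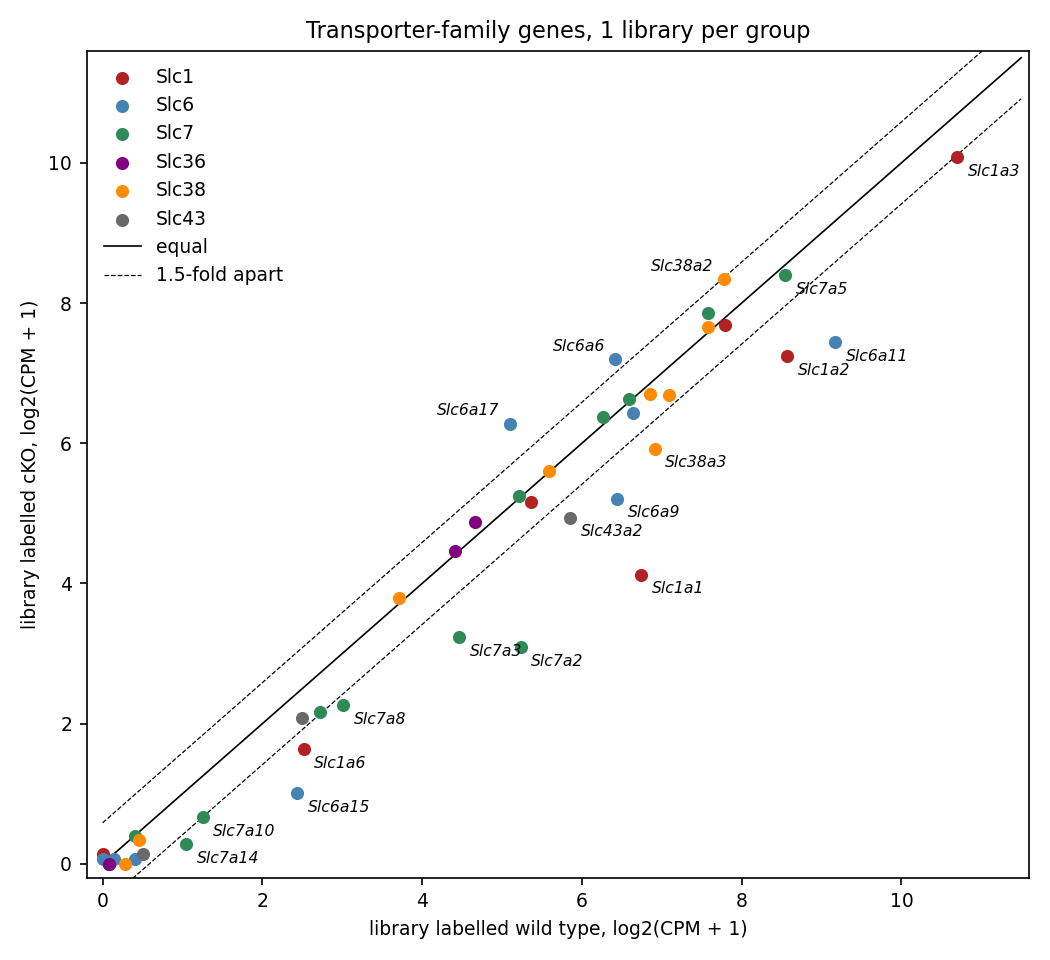
Level of 46 of the 47 genes in the library labelled wild type (x axis) and the library labelled cKO (y axis), both as log2(CPM + 1), coloured by family, with lines of equality and of a 1.5-fold difference. The 14 lower genes lie below the lower dashed line, and Slc6a6 and Slc6a17 lie above the upper one.

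The differences were unequal between families. Slc1 summed to 1490 CPM (cKO) against 2411 (wild type) (ratio 0.618, 0.609 to 0.627), and Slc6 to 901 against 1450 (0.621, 0.609 to 0.633). Slc6a11 alone held 173 CPM (cKO) and 576 CPM (wild type) of the Slc6 sums. Slc43 was also lower, at 33.0 against 61.8 CPM (0.534, 0.484 to 0.589), of which Slc43a2 alone held 29.7 and 56.7. Slc7 lay near equality, at 809 against 843 CPM (0.960, 0.939 to 0.981), as did Slc36, at 49.4 against 44.6 (1.11, 1.01 to 1.22). Slc38 reached 850 against 838 CPM (1.01, 0.992 to 1.04), but its deposited TPM, which are scaled by gene length, summed to 324 against 341 and so lay on the other side of equality. Without Slc38a2, its most abundant gene, Slc38 summed to 528 against 619 CPM (0.853, 0.830 to 0.876).

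Sequences before an annotated transcription start are shown for the glutamate transporter genes, for Slc6a11, the GABA transporter gene of astrocytes, and for Slc7a11, whose start region holds a known response element for amino acid shortage. They come from RefSeq windows of GRCm38.p6, read 5′ to 3′ on the strand of the gene, and only the longest stretch of each that was free of annotated exons is printed. Of the 47 genes, 34 had at least 1 such window, and for 14 of these every window lay more than 100 bases inside the annotated gene, at an internal start. That is so for Slc1a2, whose window stands at a start 48.2 kb inside the gene, and for Slc7a11, at a start 55.5 kb inside it. Capitals mark the motifs searched on both strands in the 250 bases before the start, listed after the sequences.
Slc1a1 (chr19:28834885-28835048, plus strand): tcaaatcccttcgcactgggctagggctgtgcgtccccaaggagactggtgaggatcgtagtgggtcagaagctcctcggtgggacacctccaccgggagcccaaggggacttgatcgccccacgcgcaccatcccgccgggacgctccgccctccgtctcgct
Slc1a2 (chr2:102706188-102706355, plus strand): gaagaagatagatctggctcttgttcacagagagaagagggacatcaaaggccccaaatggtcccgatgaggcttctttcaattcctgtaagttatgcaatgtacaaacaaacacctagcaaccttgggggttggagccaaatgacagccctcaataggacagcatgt
Slc1a3 (chr15:8710808-8711057, minus strand): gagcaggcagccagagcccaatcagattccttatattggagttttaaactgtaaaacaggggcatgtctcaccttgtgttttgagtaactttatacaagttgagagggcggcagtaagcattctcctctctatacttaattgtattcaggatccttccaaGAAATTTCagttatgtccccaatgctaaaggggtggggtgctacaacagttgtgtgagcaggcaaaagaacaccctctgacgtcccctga
Slc6a11 (chr6:114130991-114131240, plus strand): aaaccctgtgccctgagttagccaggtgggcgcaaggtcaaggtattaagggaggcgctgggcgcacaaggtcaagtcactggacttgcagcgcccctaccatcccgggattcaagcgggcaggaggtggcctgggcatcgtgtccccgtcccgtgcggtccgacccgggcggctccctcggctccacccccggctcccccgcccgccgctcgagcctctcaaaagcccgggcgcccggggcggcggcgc
Slc7a11 (chr3:50443615-50443863, minus strand): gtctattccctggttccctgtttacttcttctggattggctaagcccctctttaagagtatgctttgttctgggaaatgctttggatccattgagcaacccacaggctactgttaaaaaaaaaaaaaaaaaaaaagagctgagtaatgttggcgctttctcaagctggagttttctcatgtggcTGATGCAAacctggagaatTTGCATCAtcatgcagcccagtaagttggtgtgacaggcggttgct

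The composite element bound by ATF4 with C/EBP factors, searched as TGATGNAA, is in 3.45% of all 32851 RefSeq windows of that length. Slc7a11 holds it on both strands, 66 and 47 bases before that internal start, as the capitals show, and it is also in Slc7a7. It is in 0 of the 10 lower genes that have a window. The core of the heat shock element, GAANNTTC, is in 6.69% of windows, among them Slc1a3 (90 bases before the start), Slc6a17 and Slc38a4. The core bound by hypoxia-inducible factors, ACGTG, is in 16.6% of windows. It is in 12 of the 34 genes with a window, among them 2 of the 10 lower genes and 5 of 13 genes within 1.5-fold. A SOX motif, ACAATG, is in 10.7% of windows and in 0 of the 10 lower genes. The counts are of genes with a match in any window, and the 34 genes have 49 windows. They are thus not on the scale of the shares of windows, and the counts are small. A match is a string of letters and says nothing of binding.

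Among the glutamate transporters, all 4 kept genes had less RNA in the library labelled cKO, and their sum was 1249 against 2150 CPM (1.72-fold lower, 1.69 to 1.75). Slc1a1 (Entrez 20510, chromosome 19, 28835135 to 28913960, GRCm38.p6) encodes EAAC1, the glutamate and cysteine carrier best known from neurons. It had 311 reads (cKO) against 1995 (wild type), or 16.4 against 106 CPM. That is 6.44-fold lower (5.71 to 7.28), a log2 difference of -2.62, the largest of the 35.

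Slc1a2 (Entrez 20511, chromosome 2, 102658239 to 102790784) encodes GLT-1, the main glutamate carrier of mature astrocytes. Its reads were 2852 against 7139, or 151 against 379 CPM, 2.51-fold lower (2.41 to 2.63). Slc1a3 (Entrez 20512, chromosome 15, 8634124 to 8710807) encodes GLAST, the glutamate carrier of radial glia, stem cells and astrocytes. It had 20426 against 31290 reads, or 1080 against 1661 CPM, and was 1.54-fold lower (1.51 to 1.57). Of these genes Slc1a3 differed least, and Slc1a1 most.

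Per gene length Slc1a3 was the most abundant of all 47, at 451 TPM (cKO) and 690 TPM (wild type). It made up 75.1% and 74.3% of the TPM of its family, so its share was nearly the same in both. The share of Slc1a1 was 1.30% against 5.39%. Slc1a6, a carrier best known from Purkinje cells, was low, with 40 reads against 89 (2.23-fold lower, 1.52 to 3.33), and overlaps Ccdc105, which had 1 read against 2. The retinal carrier gene Slc1a7 had 2 reads against 0.

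The neutral exchangers of the same family were close to equal. Slc1a4, which encodes the serine and alanine exchanger ASCT1, had 3894 reads against 4155 (ratio 0.934, 0.893 to 0.975). Slc1a5, which encodes the glutamine exchanger ASCT2, had 655 against 755 (0.864, 0.777 to 0.961). The family sum without Slc1a3 was 410 against 750 CPM, so its difference was not that of Slc1a3 alone.

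**Figure D2:**
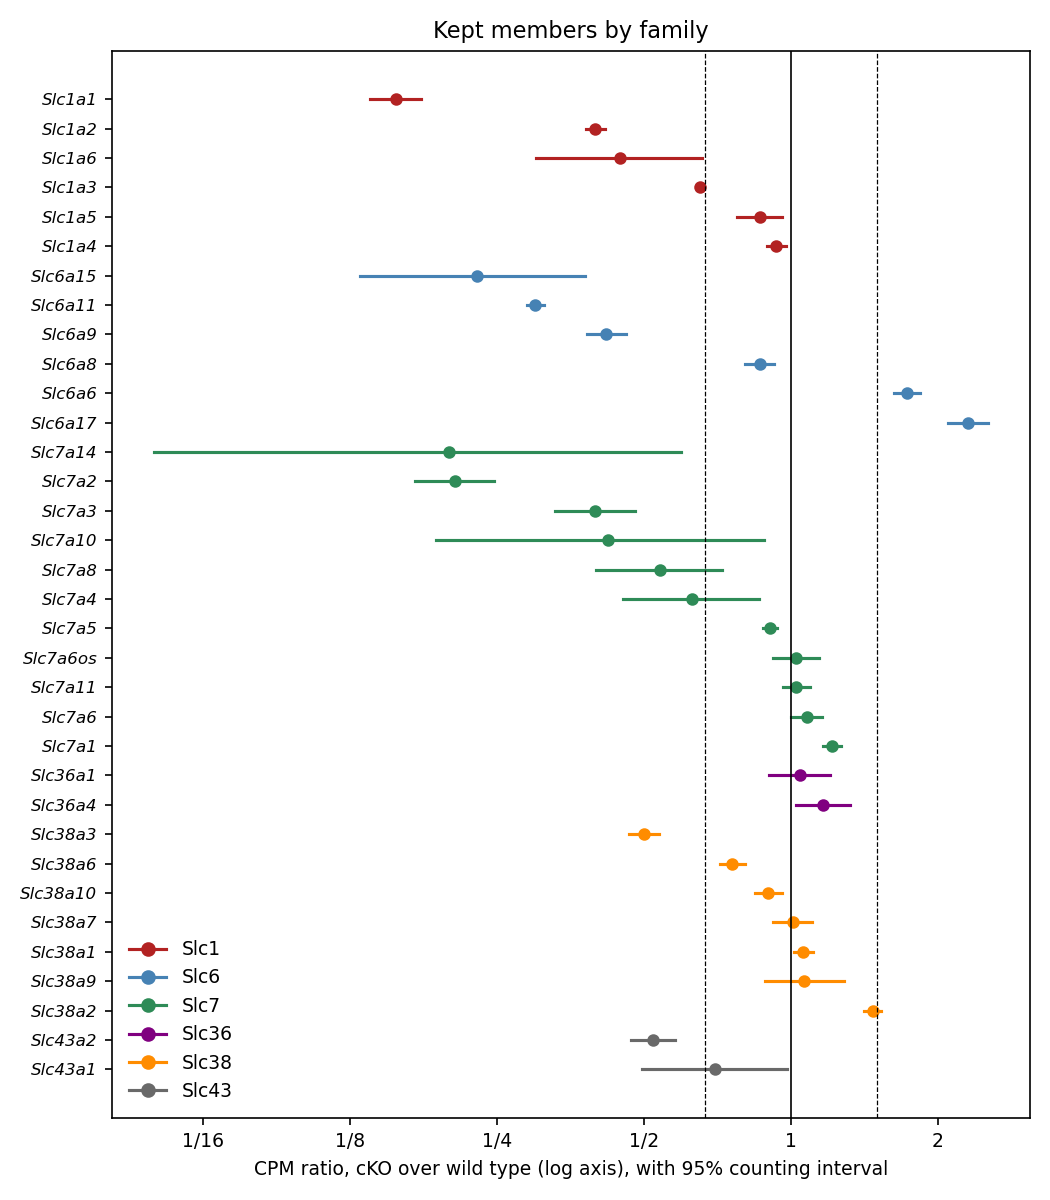
Ratio of CPM, cKO over wild type, on a log axis for 34 of the 35 kept genes by family, with 95% counting intervals as bars and dashed lines at 1.5-fold. Glutamate transporters lie left of the lower dashed line, between 0.155 for Slc1a1 and 0.650 for Slc1a3, while both genes right of the upper line belong to Slc6.

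In Slc6 an astrocyte GABA carrier and a glial glycine carrier were lower and 2 others higher. Slc6a11 (Entrez 243616, chromosome 6, 114131241 to 114249886), which encodes the astrocyte GABA carrier GAT-3, had 3265 reads (cKO) against 10856 (wild type), 173 against 576 CPM. That is 3.34-fold lower (3.21 to 3.47). Per gene length its level was 74.7 TPM (cKO) against 248 (wild type), and it made up 21.2% against 41.0% of the TPM of Slc6. Slc6a13, a GABA and taurine carrier gene, had 0 reads against 1.

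Slc6a9 (Entrez 14664, chromosome 4, 117835258 to 117869305), which encodes the glial glycine carrier GlyT1, had 682 reads against 1621, or 36.1 against 86.0 CPM, 2.39-fold lower (2.18 to 2.61). The neuronal glycine carrier gene Slc6a5 had 1 read against 0. Slc6a8, which encodes the creatine carrier, had 1607 against 1853 reads (ratio 0.864, 0.808 to 0.924) and lies on the X chromosome. Slc6a15, a neutral amino acid carrier of neurons, was low, with 19 against 83 reads (4.39-fold lower, 2.64 to 7.65).

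Genes in the other direction were Slc6a17 and Slc6a6. Slc6a17 (Entrez 229706, chromosome 3, 107467548 to 107518018) encodes NTT4, a neutral amino acid carrier of synaptic vesicles, and had 1449 reads (cKO) against 626 (wild type). At 76.6 against 33.2 CPM it was 2.31-fold higher (2.10 to 2.54). Slc6a6 (Entrez 21366, chromosome 6, 91684048 to 91759063), which encodes the taurine carrier, had 2763 against 1593 reads, 146 against 84.6 CPM, and was 1.73-fold higher (1.62 to 1.84). Both rank in the upper part of all kept genes, with log2 differences above those of 99.2% and 97.9% of them. Monoamine carriers were at or near 0, the dopamine carrier gene Slc6a3 with 1 read against 6 and the serotonin carrier gene Slc6a4 with 0 against 1.

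**Figure D3:**
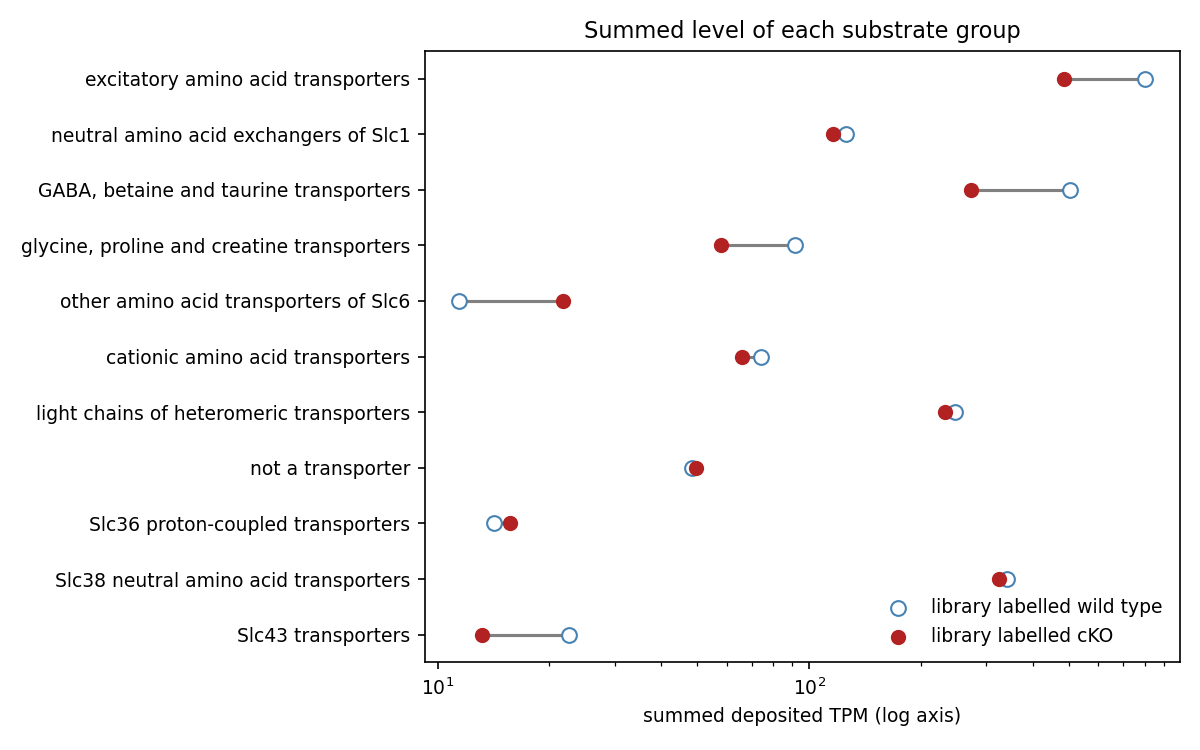
Summed deposited TPM (log axis) of each substrate group in the library labelled wild type (open circles) and the library labelled cKO (filled circles). Excitatory amino acid carriers stand at 485 (cKO) against 803 TPM (wild type) and the GABA, betaine and taurine group at 272 against 502, while heteromeric light chains (231 against 247) and Slc38 (324 against 341) are nearly level.

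Slc7 held 5 lower genes and 0 higher among 11 kept, and 3 lower among the 9 that reached 1 CPM in both libraries. Of all kept genes 10.2% were lower and 4.22% higher, and under the filter on both libraries 8.44% and 3.84%. The 5 lower genes were scarce, with 388 reads in all against 1266. Without Slc7a5, its most abundant gene, the family summed to 471 against 470 CPM (ratio 1.003, 0.974 to 1.033). The sum of the family without Slc7a1, left out after its value was seen, was 579 against 653 CPM (ratio 0.886, 0.863 to 0.909). The arginine and lysine carrier gene Slc7a2 (CAT-2, Entrez 11988, chromosome 8, 40862341 to 40922070) had 142 reads (cKO) against 689 (wild type), 7.51 against 36.6 CPM, 4.87-fold lower (4.06 to 5.88). Slc7a3 (CAT-3, Entrez 11989, X chromosome, 101079146 to 101090452) had 159 against 398 reads, 2.51-fold lower (2.09 to 3.04), and overlaps Snx12 by 1086 bases, which had 1390 against 1366. Slc7a1 (CAT-1), the widespread carrier of the same substrates, had 4355 against 3572 reads, a ratio of 1.21 (1.16 to 1.27).

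Cationic carriers thus differed in opposite directions, and their summed level was 250 against 254 CPM (ratio 0.984, 0.945 to 1.02). Slc7a1 was the main one per length, at 54.8 and 44.8 TPM, against 1.65 and 7.96 for Slc7a2. The related Slc7a4 had 66 against 105 reads (1.60-fold lower, 1.16 to 2.21), inside the 1.5-fold line only because of the added CPM. Slc7a14, a lysosomal relative, had 4 against 20 reads (5.02-fold lower, 1.68 to 20.2).

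Light chains of the heteromeric carriers pair with a heavy chain to reach the membrane. Slc7a5 (Entrez 20539, chromosome 8, 121881146 to 121907686), which encodes LAT1, the carrier of large neutral amino acids such as leucine, was the most abundant, with 6387 reads (cKO) against 7024 (wild type), a ratio of 0.906 (0.875 to 0.937). Slc7a11, which encodes the cystine and glutamate exchanger xCT and carries the ATF4 elements printed above, had 1851 against 1795 reads (1.03, 0.962 to 1.10). Slc7a6, a carrier of cationic and neutral amino acids, had 1546 against 1429 (1.08, 1.002 to 1.16).

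Slc7a6os lies 1724 bases from Slc7a6 and had 701 against 681 reads. A pair of scarcer light chains were lower. Slc7a8 (LAT2) had 72 against 133 reads (1.85-fold lower, 1.38 to 2.51) and Slc7a10 (Asc-1, a serine carrier of astrocytes) had 11 against 26 (2.37-fold lower, 1.13 to 5.32). The latter overlaps the more abundant Lrp3 (1336 against 1609 reads) by 239 bases, and the strand setting is unknown. The heavy chain gene Slc3a2, which encodes the partner of LAT1 and xCT, had 4350 against 5240 reads (ratio 0.827, 0.794 to 0.861), and Slc3a1 had 3 against 1.

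Slc38 carries glutamine and other small neutral amino acids, and the 2 genes with the highest mean TPM differed in opposite directions. Slc38a2 (SNAT2, Entrez 67760, chromosome 15, 96687392 to 96699728), induced by amino acid shortage in many cells, had 6096 reads (cKO) against 4126 (wild type), 322 against 219 CPM. It was 1.47-fold higher (1.41 to 1.53), just short of the line. Slc38a3 (SNAT3, Entrez 76257, chromosome 9, 107651154 to 107668968), the glutamine carrier by which astrocytes release glutamine, had 1130 against 2250 reads, 59.7 against 119 CPM, a log2 difference of -0.99, with an interval of 1.86-fold to 2.15-fold lower.

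In TPM the order of this pair was reversed between the libraries. Slc38a3 made up 26.1% of the family in the library labelled wild type and 13.9% in the other, and Slc38a2 23.9% and 37.2%. Slc38a1 (SNAT1), which lies 44.0 kb from Slc38a2, had 3820 against 3587 reads (ratio 1.06, 1.01 to 1.11). Slc38a6 had 1934 against 2538 (1.32-fold lower, 1.24 to 1.40) and Slc38a10 1959 against 2168 (1.11-fold lower, 1.04 to 1.18). The lysosomal carriers Slc38a7 (glutamine) and Slc38a9 (an arginine sensor) had ratios of 1.01 (0.918 to 1.11) and 1.07 (0.886 to 1.28), with 897 against 886 and 243 against 227 reads.

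Both kept proton-coupled carriers of Slc36, a family active at lysosomes, had ratios above 1. Slc36a1 had 399 reads against 381 (1.04, 0.904 to 1.20) and Slc36a4 had 536 against 459 (1.16, 1.02 to 1.32). In Slc43, Slc43a2 (LAT4, Entrez 215113, chromosome 11, 75529915 to 75577575), a carrier of branched-chain amino acids and methionine, had 561 against 1069 reads, 1.91-fold lower (1.73 to 2.12). By TPM it was 1.76-fold lower (10.82 against 19.02). Slc43a1 (LAT3), with 61 against 87 reads, was 1.43-fold lower (1.02 to 2.02).

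Below the filter were 12 of the 47 genes, with at most 8 reads in a library. They were Slc1a7, Slc6a3, Slc6a4, Slc6a5, Slc6a13, Slc6a16, Slc6a19, Slc7a7, Slc36a2, Slc38a4, Slc38a11 and Slc43a3. In the library labelled cKO 5 of them had 0 reads, and in the other 2 did, where a count of 0 allows up to 3 reads (0.159 CPM).

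Lower genes were counted by level of expression. Of the 12 with the highest mean TPM (43.7 to 570), 3 were lower and 0 higher, with a median of -0.15. Among the 12 of middle level (11.98 to 41.8 TPM), 5 were lower and 2 higher (-0.21), and among the 11 of lowest level (0.12 to 8.15 TPM) 6 were lower and 0 higher (-0.59). That lowest group includes Slc7a10 and Slc7a14, and over its 9 genes that reached 1 CPM in both libraries 4 were lower, with a median of -0.55. The share of all genes at each level was not computed, so these counts show no trend particular to the transporters. With a 5 CPM filter 7.99% of all genes were lower, against 10.2% with the 1 CPM filter. Counting intervals lay below 1 for 23 of the 35, above 1 for 7 and included 1 for 5. They cover counting error only, and not the spread between cultures or animals. The same count over all kept genes was not made, so the interval counts cannot be read as a trait of the transporters.

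Enzymes that handle the transported amino acids were read beside the carriers. Of 17 kept genes of glutamate and GABA metabolism, 6 (35.3%) were lower by at least 1.5-fold and 0 were higher (median -0.20). Of all kept genes, 10.2% were lower by that much and 4.22% higher. Glul, the glutamine synthetase of astrocytes, had 5238 reads against 11461 (2.20-fold lower, 2.13 to 2.27). The proline oxidase gene Prodh had 29 against 77 (2.67-fold, 1.72 to 4.24) and the GABA transaminase gene Abat 2222 against 3817 (1.72-fold, 1.64 to 1.82). Named after its value was seen, Gad1, which makes GABA, had 615 against 449 reads and a ratio of 1.36 (1.21 to 1.54).

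Glycine and serine enzymes had 1 gene lower and 1 higher among 10 (median -0.11). The lower share, 10%, was near the 10.2% of all kept genes, of which 4.22% were higher. The glycine cleavage gene Gldc had 1715 reads against 2752 (1.61-fold lower, 1.52 to 1.71) and the folate-linked Shmt1 1337 against 847 (1.57-fold higher, 1.44 to 1.72). Among 7 kept genes of creatine and taurine synthesis, only Cdo1, the first enzyme from cysteine to taurine, was 1.5-fold apart, with 266 against 855 reads (3.23-fold lower, 2.81 to 3.72). Csad and Ado of the same list, named after their values were seen, had ratios of 0.998 (0.907 to 1.10) and 0.787 (0.740 to 0.838). A link between Cdo1 and the higher reads of the taurine carrier gene Slc6a6 was not tested. All 12 kept genes of branched-chain amino acid breakdown lay below 0 (median -0.23), none of them by 1.5-fold. Of all 12618 kept genes, 6581 lay below 0.

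Genes of amino acid shortage and sensing had medians near 0. Of 34 ATF4 targets, 1 was higher (2.94%) and 5 lower (14.7%), with a median of -0.08, beside 4.22% and 10.2% of all kept genes. Atf3 had 311 reads against 181 (1.71-fold higher, 1.42 to 2.07). Ddit4 (2511 against 5076), Chac1 (248 against 478) and Trib3 (140 against 251) were lower by 2.03-fold, 1.93-fold and 1.80-fold. A pair of genes named after their values were seen, Asns, the asparagine synthetase, and Atf4 itself, had ratios of 1.04 (0.994 to 1.08) and 0.970 (0.935 to 1.01). Of 36 kept genes of amino acid sensing by mTORC1, 0 were 1.5-fold apart (median -0.06). Other amino acid carriers outside the 6 families had 1 of 14 lower (7.14%) and 0 higher (median 0.05). The 1 was the peptide carrier gene Slc15a2 with 637 against 1110 reads (1.75-fold lower, 1.59 to 1.93). Of 7 listed vesicular transmitter carriers 6 had a row in the deposited data and 1 was kept, Slc18a2 (monoamines), with 90 against 65 reads (ratio 1.38, 0.991 to 1.93).

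**Figure D4:**
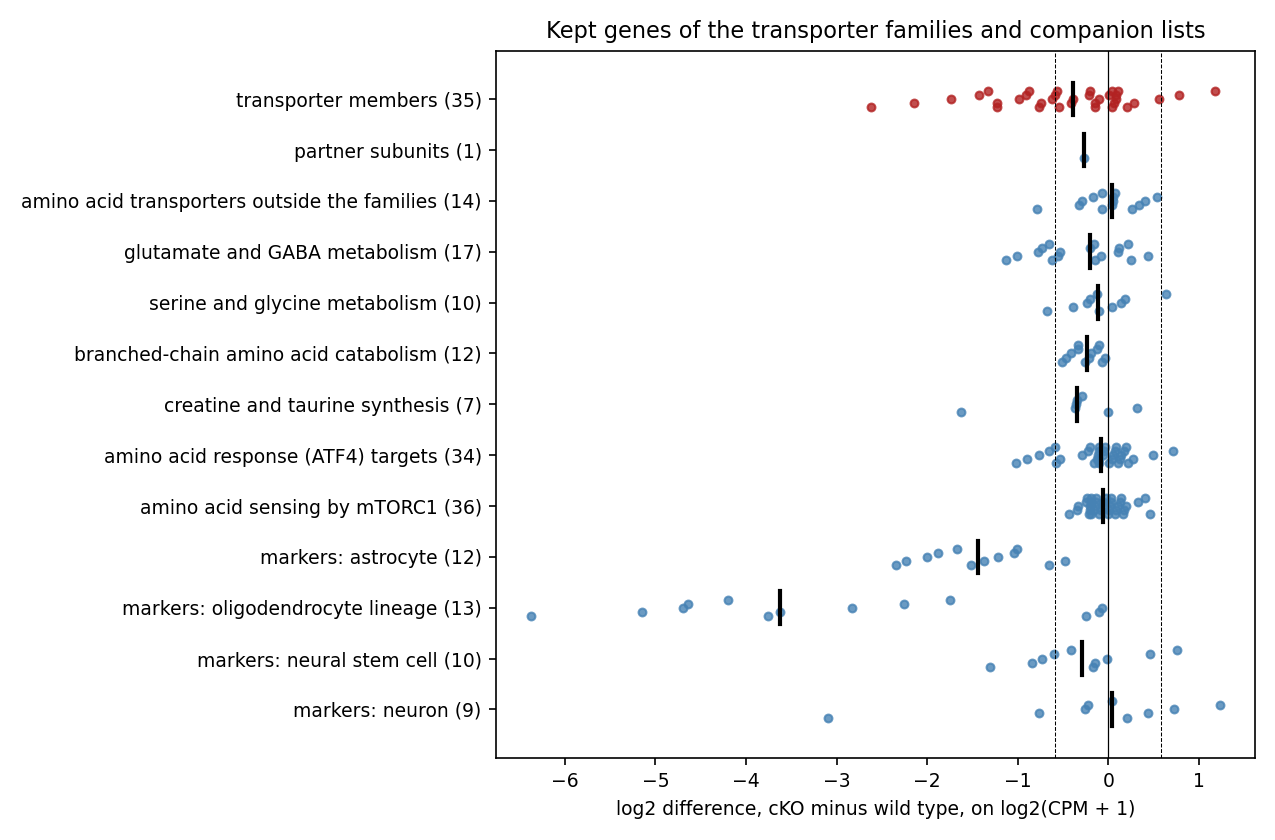
Log2 difference of each kept gene (points), cKO minus wild type on log2(CPM + 1), for the transporters, the companion lists and the cell type markers, with medians as bars, dashed lines at 1.5-fold and the number of genes in parentheses. The transporter median is -0.39, those of mTORC1 sensing and ATF4 targets are -0.06 and -0.08, and that of astrocyte markers is -1.44.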

How the data were processed

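The table that the authors deposited holds 4 kinds of value per library, matched to the libraries by the genotype in the column names. Per the file headers these are a read count, here an estimated count since 10% of the values are not whole, TPM, FPKM and a normalized read count. The authors' TPM were used for levels between genes. The deposited FPKM were not used for any printed value. The normalized count, a signal, equals the deposited read count rounded up times 1 constant per library. The submitters' processing notes name build GRCm38.p6. The sources used here do not give the aligner, counter, annotation or strand setting.

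Estimated counts were rounded and divided by the column totals (Python 3.11.15, pandas 2.3.3, scipy 1.17.1). All genes were processed together. Each ratio has a 95% exact conditional binomial (Clopper-Pearson) interval, which was tested on simulated data. Without molecular identifiers, reads are not independent molecules. RefSeq tables of GRCm38.p6 matched all 47 genes by gene number. TMM factors came from edgeR 4.0.16 and size factors from DESeq2 1.42.0, as alternatives only, beside other added values, filters and units. Members and lists were chosen with earlier results of these data known. Named were Slc1a1 to Slc1a3, genes 1.5-fold apart, the 3 most abundant per family, the other members for completeness, and up to 3 genes per direction of each companion list. Of the members, 1 enters the counts and sums and is not reported here by itself.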

Additional observations from a re-analysis of the deposited data

How the results depend on the processing

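The count of lower transporters, 14, ranged from 10 (5 CPM added, or a 5 CPM filter) to 15 (0.5 CPM added), and Slc6a6 and Slc6a17 were the 2 higher genes in each of the 10 alternatives run. Of all genes, 5.34% were lower and 2.41% higher with 5 CPM added. With a 5 CPM filter these shares were 7.99% and 3.83%, and with 0.5 CPM added 11.3% and 4.91%. The median difference of -0.39 moved more, for a cause not tested: it was -0.20 with 5 CPM added, -0.15 with no filter, -0.18 with a 5 CPM filter, -0.21 with deposited TPM and -0.21 with 1 CPM asked of both libraries, an alternative chosen after seeing the data. The Slc1 ratio was 0.628 with TMM scaling and 0.647 by TPM. By TPM the ratios of Slc6, Slc7 and Slc38 were 0.581, 0.938 and 0.950, the last crossing equality, and the cause was not tested. Of the 34 kept genes reported one by one, Slc38a7 alone changed sign with another added value, TMM, median of ratios scaling, TPM or the deposited normalized count, from 0.01 to -0.0038 by TPM. No paired analysis was possible because each group has 1 library and the labels carry no replicate numbers. Genes under about 100 reads, such as Slc7a10 and Slc7a14, have intervals several times wide, and no alternative supplies the spread between animals or cultures.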
